A study of Mus musculus with 12 samples.

Results

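Cd28, Icos and Cd27 encode co-stimulatory receptors of T cells, and they were taken by name from the probes of the nCounter Metabolic Pathways panel, 3 of 748 endogenous genes. Their RNA was counted in tumor-infiltrating T cells of 12 female C57BL/6 mice that carried KPC.Luc, a luciferase-bearing mouse pancreatic ductal adenocarcinoma line, under the skin, and the cells were captured on beads through CD90.2. The methods put the age of mice in the experiments at 8 to 10 weeks. Treatment began 6 to 7 days after implantation and lasted 10 days, and every mouse received a peptide and an antibody. There were 3 mice in each of 4 groups, which were Scram+IgG (scrambled peptide with isotype IgG), ANT008+IgG (ANT008, a peptide that blocks VIP receptors, with IgG), Scram+aPD-1 (scrambled peptide with anti-PD-1) and ANT008+aPD-1 (both agents). The peptide dose was 10 µg daily and the antibody dose 200 µg every 3 days. The bead-selected cells were stated to be 80 to 85% T cells, so RNA of other cells of the tumor could be present, and 1 mouse occupied 1 lane.

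A T cell that recognizes antigen through its T cell receptor and the CD3 chains needs a further signal to become fully activated. CD28 gives that signal when it binds CD80 or CD86 on an antigen-presenting cell, and PD-1 signaling is known to act against it. ICOS, a relative of CD28 that appears after activation, binds ICOS ligand and is prominent on follicular helper and regulatory T cells, while CD27 belongs to the TNF receptor family, binds CD70 and supports survival and memory. CD28 and ICOS signal through PI3K, and CD27 signals through TRAF proteins to NF-kB.

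Each count comes from 1 probe pair against a stretch of 100 bases, and the stretches of Cd28 and Icos are shown because they define which RNA was counted. The Cd28 target covers bases 526 to 625 of transcript NM_007642.4 and the Icos target bases 142 to 241 of NM_017480.1, both written 5′ to 3′ as in the vendor's panel definition, in lower case throughout. In each of them 1 of the 3 forward reading frames is free of stop codons.
Cd28: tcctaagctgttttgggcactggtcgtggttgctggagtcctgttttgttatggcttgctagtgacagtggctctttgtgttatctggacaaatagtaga
Icos: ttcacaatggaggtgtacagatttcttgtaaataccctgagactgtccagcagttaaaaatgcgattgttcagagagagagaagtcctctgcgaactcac
The Cd27 target covers bases 730 to 829 of NM_001042564.1. None of the 3 targets shares a run of 20 bases with another of the 768 gene targets of the panel. In the RefSeq annotation of GRCm38.p6, Cd28, Ctla4 and Icos lie next to each other in that order, and Cd27 lies elsewhere, between Tapbpl and Tuba3a.

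Depth was very unequal, and it limits what can be said of the group given both agents. The endogenous genes summed to between 5776 and 1486646 counts per lane, and the lowest totals were those of ANT008+aPD-1 mouse 1 (5776) and mouse 3 (24813), where 79.1% and 52.3% of these genes did not exceed background. Background was the mean plus 2 SD of the 8 negative control probes of a lane. Below, counts are scaled by 3 housekeeping genes, which multiplied the few counts of these shallow lanes and their background alike. Cd28 was above background in all 12 lanes, by 2.72 to 117 times, whereas Icos and Cd27 were above it in 11 and not in ANT008+aPD-1 mouse 1. Counts of less than 3 times background were found in 5 lanes for Icos and in 6 for Cd27, so much of the low end of these genes is close to background. Cd3d, which marks T cells, was also above background in all 12 lanes.

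Cd28 had the highest scaled counts in the group given both agents. In ANT008+aPD-1 the raw counts of mice 1 to 3 were 27, 834 and 118, and the scaled counts were 973, 658 and 1420. In Scram+IgG the raw counts were 2450, 149 and 973 and the scaled counts 398, 142 and 152. All ANT008+aPD-1 mice were above all Scram+IgG mice, without overlap, and the highest of them rested on a lane with few counts. Of the 640 endogenous genes tested, 7.81% were higher without overlap in this comparison, and 5.63% of the 142 genes above background in every lane were. The 27 counts of mouse 1 carried an exact Poisson 95% interval of 17.8 to 39.3 counts, which scaling turned into 641 to 1416, and such intervals cover counting error only. Fewer T cells and less RNA per cell cannot be told apart in these bulk samples, and a scaled count does not separate them.

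The single agents lay between these groups for Cd28. In Scram+aPD-1 the scaled counts of mice 1 to 3 were 446, 210 and 918, and in ANT008+IgG they were 237, 521 and 267. Group means ran in order from 231 ± 145 in Scram+IgG to 342 ± 156 in ANT008+IgG, 525 ± 360 in Scram+aPD-1 and 1017 ± 383 in ANT008+aPD-1 (SD, n = 3 each). Each group overlapped its neighbor in this order, and ANT008+aPD-1 was apart from Scram+IgG and from ANT008+IgG (6.25% of tested genes were higher without overlap in the latter comparison) but overlapped Scram+aPD-1 through its mouse 3.

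In edgeR's quasi-likelihood test over the 640 genes, the log2 fold change of Cd28 in ANT008+aPD-1 against Scram+IgG was 2.13 (SE 0.62, unadjusted p = 0.00487, FDR 0.309), which did not pass the FDR threshold of 0.1. It was the 5th smallest p and the 37th highest fold change of the 640. At that threshold 0% of the genes were called in this comparison. Of the 640 genes, 82 had an unadjusted p below 0.05, and 9.38% were higher at that level. Other tools called 30 genes (DESeq2), 156 (limma's voom with sample weights) and 0 (limma on log2 values). DESeq2 scaled the lanes by its own factors rather than by the housekeeping genes, so scaling and test changed together. Against ANT008+IgG the log2 fold change of Cd28 was 1.57 (SE 0.61, unadjusted p = 0.0245, FDR 0.578 by edgeR), where 5.47% of the genes were higher at an unadjusted p below 0.05. Against Scram+aPD-1 it was 0.96 (SE 0.60, FDR 0.751 by edgeR). Anti-PD-1 without ANT008 gave 1.17 (SE 0.60, FDR 0.988 by edgeR) against Scram+IgG and ANT008 without anti-PD-1 gave 0.56 (SE 0.59, FDR 0.999 by edgeR). The interaction of both agents was 0.40 (SE 0.84, FDR 0.993 by edgeR). Its value was -0.25 without Scram+IgG mouse 1, 1.06 without Scram+aPD-1 mouse 3 and -0.23 without both shallow lanes. In these 5 further comparisons 0% of the genes were called by edgeR, and 50, 40, 7, 3 and 9 genes in the order given had an unadjusted p below 0.05. DESeq2 called 5 genes in ANT008+aPD-1 against each single agent. Voom called 5 in ANT008+aPD-1 against ANT008+IgG, 143 in Scram+aPD-1 and 44 in ANT008+IgG against Scram+IgG. With voom Cd28 passed in Scram+aPD-1 against Scram+IgG (1.45, FDR 0.0393) and in ANT008+aPD-1 against ANT008+IgG (2.19, FDR 0.0817).

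The call for Cd28 depended on single mice and on the tool, which in DESeq2 included its own lane scaling. Without Scram+IgG mouse 1, whose lane had the highest Cd28 count of its group and a vendor mark reading FLAG with no reason given, a mark that ANT008+IgG mouse 1 also carried, the log2 fold change was 2.78 with an FDR of 0.0347 by edgeR, and 84 genes were called. Without ANT008+aPD-1 mouse 2, the only deeply counted lane of its group, it was 2.38 with an FDR of 0.0686 by edgeR, and 68 genes were called. The other values moved as well. Leaving out 1 mouse took the value of Scram+aPD-1 against Scram+IgG from 0.51 (without Scram+aPD-1 mouse 3) to 1.82 (without Scram+IgG mouse 1). That of ANT008+IgG ran from 0.12 (without ANT008+IgG mouse 2) to 1.21 (without Scram+IgG mouse 1), and that of ANT008+aPD-1 against Scram+aPD-1 from 0.58 (without Scram+aPD-1 mouse 2) to 1.62 (without Scram+aPD-1 mouse 3). With both shallow lanes left out, mouse 2 remained as the lone ANT008+aPD-1 sample, assumed to vary like the other groups, and the value was 1.51 (FDR 0.885 by edgeR). With all 12 mice, DESeq2 gave 1.88 with an FDR of 0.0225 and limma's voom with sample weights gave 2.99 with an FDR of 0.00466. Voom also passed Icos (2.38, FDR 0.0408) and Cd27 (2.19, FDR 0.0622).

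**Figure D1:**
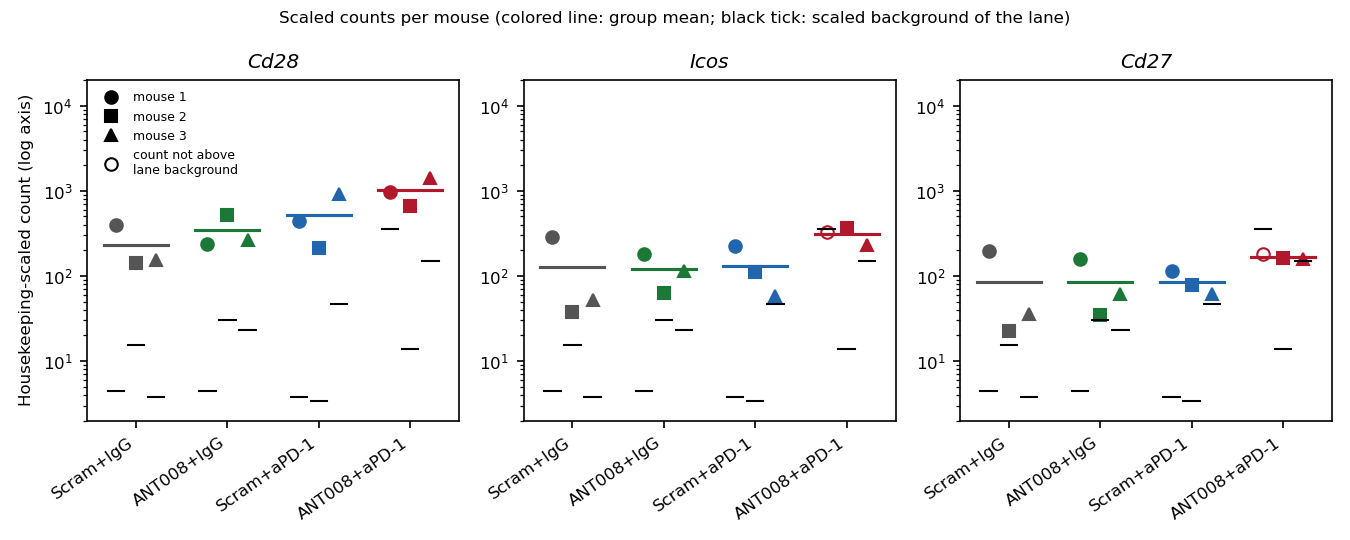
Housekeeping-scaled counts (log axis) of Cd28, Icos and Cd27 in each of the 12 mice, by group, with the group mean as a colored line and the scaled background of each lane as a black tick. Cd28 in ANT008+aPD-1 lies between 658 and 1420, above all Scram+IgG mice, while the open circles of Icos and Cd27 in ANT008+aPD-1 mouse 1 lie under the background of that lane.

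Icos was counted closer to background. The scaled counts of mice 1 to 3 were 324, 367 and 229 in ANT008+aPD-1, from raw counts of 9, 465 and 19. They were 290, 38.1 and 51.9 in Scram+IgG, from raw counts of 1781, 40 and 332. The groups overlapped through Scram+IgG mouse 1, which stood well above the other 2 mice of its group, and within ANT008+aPD-1 only mouse 2 had a count far above background. In ANT008+IgG the scaled counts were 183, 63.7 and 116, and in Scram+aPD-1 they were 225, 111 and 57.4. ANT008+aPD-1 was above both of these groups without overlap, by a small margin against Scram+aPD-1 (229 against 225), and in that comparison 4.53% of the tested genes were higher without overlap. Among these lanes, ANT008+aPD-1 mouse 1 gave 9 counts against a background of 9.94.

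The means of Icos were 127 ± 141 in Scram+IgG, 121 ± 60.02 in ANT008+IgG, 131 ± 85.6 in Scram+aPD-1 and 307 ± 70.8 in ANT008+aPD-1 (SD, n = 3 each), so the first 3 groups had no order beyond their spread. The log2 fold change of ANT008+aPD-1 was 1.28 (SE 0.75, FDR 0.468) against Scram+IgG by edgeR. It was 1.34 (SE 0.76, FDR 0.578) against ANT008+IgG and 1.20 (SE 0.76, FDR 0.751) against Scram+aPD-1 by edgeR. By edgeR, neither single agent moved Icos away from Scram+IgG by more than its standard error, with values of -0.06 (SE 0.72) for ANT008+IgG and 0.08 (SE 0.71) for Scram+aPD-1, and the interaction was 1.26 (SE 1.04, FDR 0.993 by edgeR). Voom with sample weights gave 1.34 (SE 0.45, FDR 0.119) for ANT008+IgG. For Scram+aPD-1 it gave 1.59 (SE 0.45, FDR 0.0530), which passed the threshold. Without Scram+IgG mouse 1 the change of ANT008+aPD-1 against Scram+IgG was 2.77 with an FDR of 0.0347 by edgeR. Without it ANT008+IgG was at 1.43 (SE 0.57) and Scram+aPD-1 at 1.57 (SE 0.58) against Scram+IgG, neither past the FDR threshold, and the interaction was -0.24, so the values of the single agents rested on this mouse.

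Cd27 was the most even gene within ANT008+aPD-1 and was the nearest to background there. Its scaled counts in mice 1 to 3 were 180, 163 and 156 from raw counts of 5, 206 and 13, against lane backgrounds of 9.94, 17.5 and 12.4. Only mouse 2 was clear of background, so the closeness of these 3 values says little about the spread between mice. The scaled counts were 198, 22.9 and 36.0 in Scram+IgG, 158, 34.4 and 61.9 in ANT008+IgG, and 115, 78.5 and 61.5 in Scram+aPD-1. As for Icos, mouse 1 was the highest of each of these groups, and ANT008+aPD-1 was without overlap only against Scram+aPD-1, where 4.53% of tested genes were higher without overlap.

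The mean scaled count of Cd27 was 85.6 ± 97.5 in Scram+IgG, 84.8 ± 64.9 in ANT008+IgG, 85.0 ± 27.4 in Scram+aPD-1 and 166 ± 12.3 in ANT008+aPD-1 (SD, n = 3 each). The log2 fold change of ANT008+aPD-1 was 0.93 (SE 0.78, FDR 0.617) against Scram+IgG, 0.92 (SE 0.78, FDR 0.692) against ANT008+IgG and 0.92 (SE 0.78, FDR 0.768) against Scram+aPD-1 by edgeR. With the mean of a lane's negative control probes, without the 2 SD, subtracted from its counts, the value against Scram+IgG was 0.38. Without Scram+IgG mouse 1 it was 2.46 with an FDR of 0.0421 by edgeR. Against ANT008+IgG it was 1.78 without ANT008+IgG mouse 1 and 0.55 without ANT008+IgG mouse 2. The interaction was 0.92 (SE 1.06, FDR 0.993 by edgeR). Its value was -0.62 without Scram+IgG mouse 1 and 1.77 without ANT008+IgG mouse 1.

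All 3 receptors moved with the choice of scaling, and so did the panel as a whole. With housekeeping scaling, the median log2 fold change of the 640 genes in ANT008+aPD-1 against Scram+IgG was 0.12, and Cd28, Icos and Cd27 lay 2.01, 1.15 and 0.80 above it. With the positive control probes as the scale the median was -4.37, and all 3 receptors were lower in ANT008+aPD-1 (-2.90, -3.19 and -3.78) while remaining 1.47, 1.19 and 0.59 above the median. With the CD3 chains as the scale the median was -1.94 and Cd28, Icos and Cd27 were at 0.50, 0.26 and -0.06. Of the 142 genes above background in every lane, Cd28 had the second-highest log2 fold change with housekeeping scaling, after Cd14 at 2.36 and before Ptgs2 and Ctla4, both at 1.83.

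**Figure D2:**
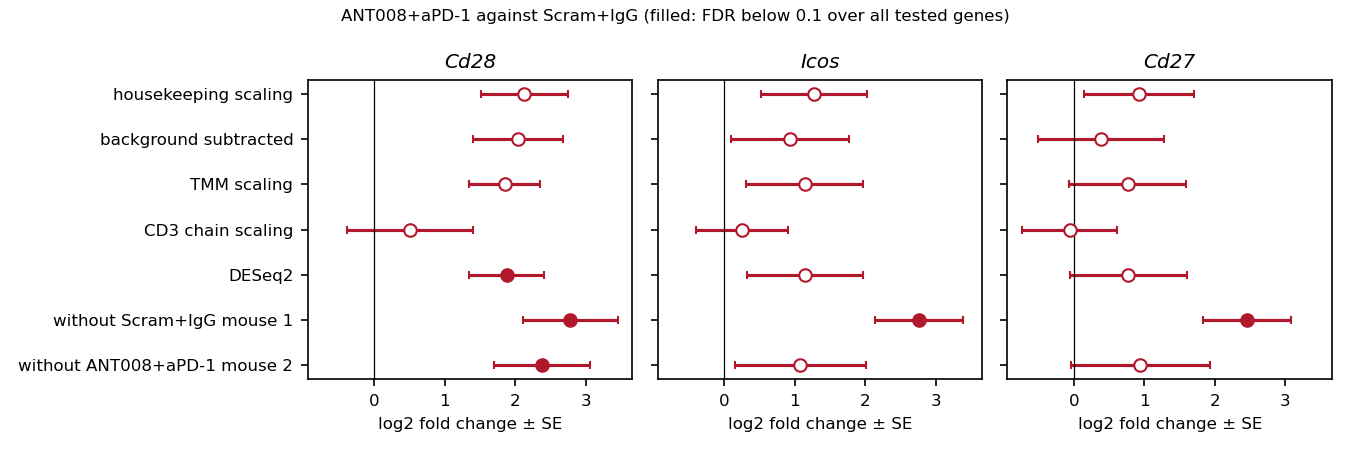
Log2 fold change ± SE of Cd28, Icos and Cd27 in ANT008+aPD-1 against Scram+IgG under 7 settings, with filled points where the FDR over all tested genes was below 0.1. Cd28 is filled for DESeq2 (1.88, with its own lane scaling) and for either mouse left out (2.78 and 2.38). Icos (2.77) and Cd27 (2.46) also passed without Scram+IgG mouse 1. With CD3 chain scaling all 3 receptors lie within their SE of 0.

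Setting each receptor against T cell receptor RNA of the same lane needs no scaling between lanes. The count of each receptor was therefore divided by the geometric mean of the counts of Cd3d, Cd3e, Cd3g and Cd247, the CD3 chains and the zeta chain. Over the 12 lanes Cd27 stood at 26.4 to 46.2% of the CD3 chains (median 36.5%), a 1.75-fold range, although its scaled count varied 8.66-fold. Icos stood at 36.9 to 84.3% (median 52.1%), a 2.28-fold range against 9.63-fold for its scaled count. Cd28 stood at 59.7 to 554% (median 159%), a 9.28-fold range that was nearly as wide as the 10.0-fold range of its scaled count. The width depended on the chain, since Cd28 per Cd3d had a 3.54-fold range. The chains diverged among themselves, with Cd3d per Cd3e from 1.18 in ANT008+IgG mouse 1 to 7.88 in Scram+aPD-1 mouse 3, the lanes at the lowest and the highest Cd28 ratio. In the 6 lanes where Cd27 had at least 3 times background its range was 32.6 to 46.2%, and in the 7 such lanes of Icos the range was 46.1 to 84.3%, so the narrow ratios were also seen where counts were well above background.

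No difference between groups in these ratios exceeded the spread between mice. As a log2 ratio, Cd28 was at 0.95 ± 0.43 in ANT008+aPD-1 and at 0.36 ± 0.85 in Scram+IgG (SD, n = 3), a difference of 0.58 with p = 0.5 in a two-sided exact permutation test, for which 0.1 is the smallest p that 3 mice against 3 can give. The difference was 0.24 (exact p = 0.7) for Icos and 0.03 (exact p = 1) for Cd27. The Cd27 difference was -0.65 with the negative control mean of each lane subtracted, and leaving out 1 mouse took it from -0.13 to 0.24, so its sign was not settled. Leaving out 1 mouse took the difference from 0.096 (without Scram+IgG mouse 1) to 0.88 (without Scram+IgG mouse 3) for Cd28 and from 0.021 (without ANT008+aPD-1 mouse 2) to 0.47 (without ANT008+aPD-1 mouse 3) for Icos, and without both shallow lanes it was 0.23 and 0.68. With the single agents the differences of Cd28 were 0.23 (ANT008+IgG, exact p = 1) and 0.62 (Scram+aPD-1, exact p = 0.6). Leaving out 1 mouse took them from -0.44 to 0.90 and from -0.12 to 1.07. The exact p-values do not show that the ratios were alike. The highest Cd28 ratios belonged to Scram+aPD-1 mouse 3 at 554% and ANT008+IgG mouse 2 at 383%, and the lowest to ANT008+IgG mouse 1 at 59.7% and Scram+IgG mouse 1 at 65.7%, so mice of the same group lay at opposite ends. The lowest 2 were the lanes with the vendor mark. The log2 ratio of Cd28 went with the endogenous total at r = -0.68 (rho -0.49) over the 10 deeper lanes and at -0.52 (rho -0.55) over 12, and the part of depth in it was not tested.

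**Figure D3:**
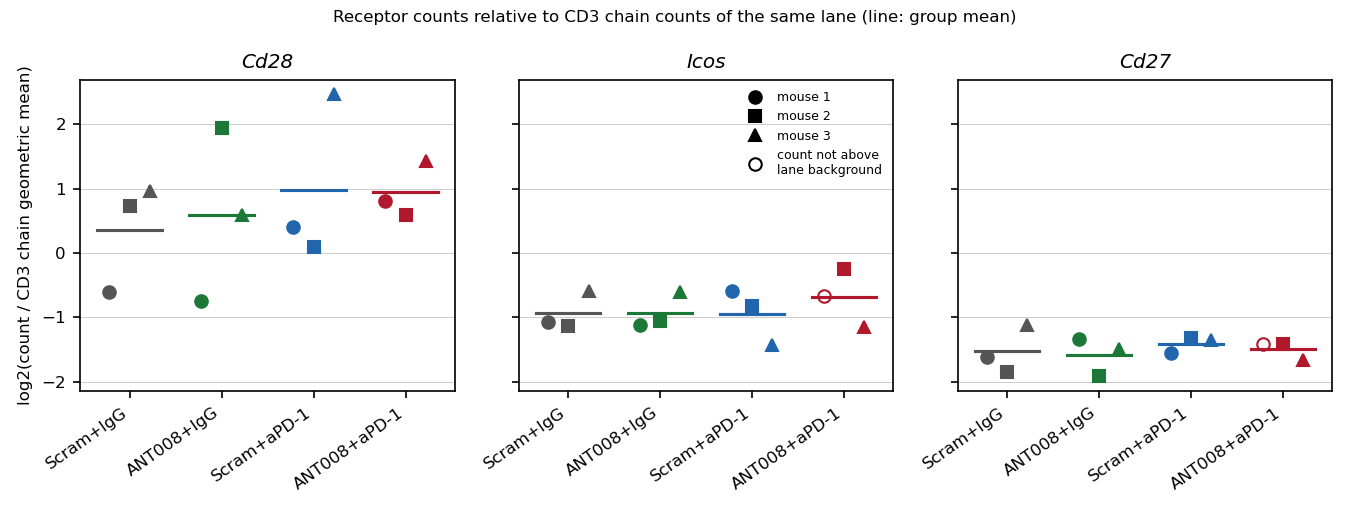
Log2 ratio of each receptor's count to the geometric mean of the CD3 chain counts of the same lane, 1 point per mouse, with the group mean as a line. Cd27 and Icos form narrow bands in all 4 groups, and Cd28 spreads from 59.7% of the CD3 chains to 554%, with the groups overlapping.

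The receptors also separated among themselves. The ratio of Cd27 to Icos counts ran from 0.443 to 1.07 over the 12 lanes, a 2.42-fold range. The ratio of Icos to Cd28 ran from 0.0625 in Scram+aPD-1 mouse 3 to 0.773 in ANT008+IgG mouse 1, a 12.4-fold range, and that of Cd27 to Cd28 had a 10.1-fold range. Across the 10 deeper lanes, those with over 50% of the endogenous genes above background, log2 scaled counts of Cd27 and Icos correlated at r = 0.94 (rho 0.93), those of Cd28 and Icos at 0.36 (rho 0.45) and those of Cd28 and Cd27 at 0.39 (rho 0.31). These are descriptions, since the points share scaling genes and mice of the same groups. Ctla4, the inhibitory receptor that lies between Cd28 and Icos in the genome, went with Icos (r = 0.92) more closely than with Cd28 (r = 0.55) over those lanes.

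The genes most like each receptor differed accordingly. Over the 10 deeper lanes, Cd27 was most like Ccl5 (a T cell and NK cell chemokine, r = 0.98), Lck (the T cell receptor kinase, 0.98), Cd3g (0.98) and Klrk1 (encoding the NKG2D receptor, 0.96). Among the genes most like Icos were Tigit (an inhibitory receptor, 0.98), Il21r (a cytokine receptor, 0.96) and Slc2a3 (a glucose transporter, 0.96). Cd28 was most like Cd14 (a co-receptor for bacterial lipopolysaccharide on monocytes and macrophages, 0.95), Rbks (ribokinase, 0.93), Tlr2 (0.93) and Prf1 (perforin, 0.91). The median over all tested genes was 0.17 for Cd28, -0.33 for Icos and -0.28 for Cd27. Over all 12 lanes the correlation of Cd28 with Cd14 was 0.96 (rho 0.96). The lanes with the most extreme Cd14 were the shallow ones, ANT008+aPD-1 mice 1 and 3, which the 0.95 already leaves out. Without the 2 most extreme of the 10 deeper lanes as well, it was 0.92. Over all 12 lanes the correlation of Cd28 was 0.87 with Prf1, 0.78 with Rbks and 0.76 with Tlr2. The count of Cd28 per count of Cd14 stayed between 0.964 and 1.81 in the 12 lanes. Cd28 also went with depth, since its log2 scaled count correlated with the endogenous total at -0.67 (rho -0.64) over 12 lanes and at -0.38 (rho -0.39) over the 10 deeper lanes, where the values were 0.37 for Icos and 0.41 for Cd27 (-0.16 and -0.14 over 12 lanes). For Cd14 they were -0.68 over 12 lanes and -0.26 over 10, and the part of depth in the result was not tested. With the CD3 chains over these lanes, Cd28 correlated at 0.79 for Cd3d, 0.62 for Cd247, 0.28 for Cd3g and 0.25 for Cd3e, while Icos was at 0.71 and Cd27 at 0.75 for Cd3d and both at 0.96 for Cd3e.

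**Figure D4:**
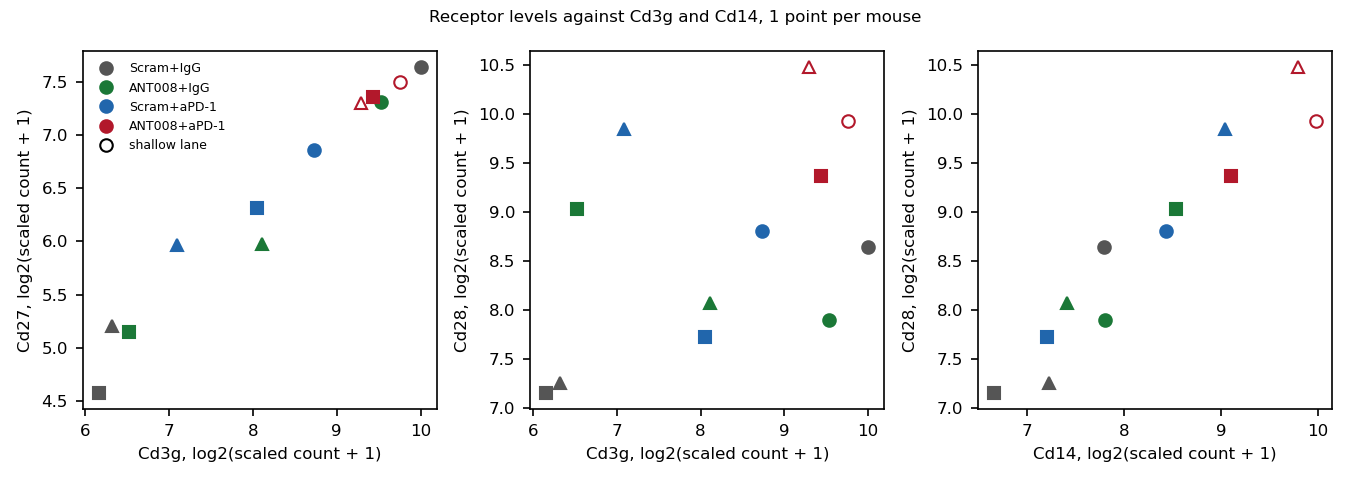
Log2(scaled count + 1) of Cd27 and Cd28 against Cd3g, and of Cd28 against Cd14, 1 point per mouse, with open symbols for the 2 shallow lanes. Cd27 rises along Cd3g (r = 0.98 over the 10 filled points) and Cd28 along Cd14 (r = 0.95), while Cd28 scatters against Cd3g (r = 0.28).

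Cd14 marks myeloid cells, and the stated purity of 80 to 85% leaves room for them, so the summed myeloid markers are given for every lane. Of the 15 myeloid markers listed, 6 were on the panel (Cd14, Cd68, Itgam, Cd163, Cybb and Csf3r), with Cd68 the most abundant, and each was above background in at least 7 lanes. Their summed scaled counts in mice 1 to 3 were 1982, 427 and 722 in Scram+IgG, 1947, 1449 and 734 in ANT008+IgG, 2457, 1039 and 1840 in Scram+aPD-1, and 2343, 2049 and 2635 in ANT008+aPD-1. The sum of ANT008+aPD-1 mouse 1 rested on 65 counts, with 2 of the 6 markers above background. Per summed T cell marker, the myeloid sum was 0.878, 0.877 and 0.905 in ANT008+aPD-1 and 0.587, 0.837 and 1.505 in Scram+IgG, so the groups overlapped. This quotient was highest in Scram+aPD-1 mouse 3 (1.69) and ANT008+IgG mouse 2 (1.61), the lanes with the highest Cd28 per CD3 chain. Both quantities divide by CD3 chain counts, so a lane low in these rises in both. Scram+IgG mouse 3, at 1.505, had Cd28 at 195% of the CD3 chains, and ANT008+aPD-1 mouse 3, at 0.905, had 269%. Cd14 itself had scaled counts of 1009, 551 and 890 in ANT008+aPD-1 and of 221, 99.98 and 149 in Scram+IgG, a log2 fold change of 2.36 (SE 0.53, FDR 0.242 by edgeR). Over the 10 deeper lanes Cd28 correlated with the other myeloid markers at 0.67 (Cd68), 0.64 (Itgam), 0.59 (Csf3r), 0.55 (Cybb) and 0.35 (Cd163). Cd27 and Icos correlated with these 6 markers from -0.34 and -0.28 (Cd163) up to 0.95 and 0.88 (Cybb), with 0.42 and 0.41 for Cd14. The part of myeloid RNA in the Cd28 result was not tested.

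Of 8 T cell markers listed, Cd3d, Cd3e, Cd3g, Cd247 and Lck were on the panel. Cd3d was the most abundant by scaled counts over the 12 lanes together, although Cd3g exceeded it in mouse 1 of Scram+IgG and of ANT008+IgG and in ANT008+aPD-1 mice 1 and 2. The summed scaled counts of these markers were 3377, 509 and 480 in Scram+IgG, 2212, 898 and 1012 in ANT008+IgG, 1939, 1106 and 1086 in Scram+aPD-1, and 2667, 2336 and 2912 in ANT008+aPD-1. The sum of ANT008+aPD-1 mouse 1 rested on 74 counts, with 4 of the 5 markers above background. Scram+IgG mouse 1 had the highest sum of all 12 mice, and it was likewise the mouse that overlapped ANT008+aPD-1 for Icos and Cd27. The summed NK cell markers (4 of 5 on the panel, Nkg7 the most abundant) were at 4504, 753 and 852 in Scram+IgG, 2594, 1544 and 1397 in ANT008+IgG, 2882, 1157 and 2988 in Scram+aPD-1, and 3208, 3191 and 3947 in ANT008+aPD-1. For ANT008+aPD-1 mouse 1 the NK cell sum rested on 89 counts, with 3 of the 4 markers above background. The NK cell markers included Klrk1 and Klrd1, which activated T cells also use, and these correlated with Cd27 at 0.96 each. Ms4a1, the CD20 gene of B cells, was above background in no ANT008+aPD-1 lane. Of 9 stromal and endothelial markers 2 were on the panel, Pdgfrb and the more abundant Vegfa, which correlated with Cd28 at 0.065 and -0.16, and none of the 6 epithelial markers was. The part of these cells in the results was not tested.

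Other receptors of the same families were measured alongside. All 3 inhibitory receptors tested had values above 0 in ANT008+aPD-1 against Scram+IgG, with log2 fold changes of 1.83 for Ctla4 (SE 0.71, FDR 0.337 by edgeR), 0.91 for Tigit (above background in 1 of 3 ANT008+aPD-1 mice) and 0.80 for Pdcd1, the gene of PD-1. Cd40lg, the helper ligand of CD40, was at 1.44 and Tnfrsf4, the OX40 receptor and a relative of Cd27, at 1.36, both exceeding background in just 1 ANT008+aPD-1 lane. Of the ligands the panel held those of PD-1, with Pdcd1lg2 at 1.19 and Cd274 at 0.67, and it had no probe for Cd80, Cd86, Icosl or Cd70. None of these genes passed an FDR of 0.1, and 56.7% of the 640 genes had a value above 0 in this comparison.

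The T cell receptor machinery that co-stimulation acts on had a median log2 fold change of 0.88 over its 10 tested genes against 0.12 over all tested genes, with 9 genes above 0, and 0 of 10 passed an FDR of 0.1. It ran from 1.44 for Cd247 and 0.98 for Lat, an adaptor, to 0.47 for Cd3e and -0.67 for Plcg1, a phospholipase gene above background in 1 of 3 ANT008+aPD-1 mice. Among the co-receptors, Cd8b1 was at 1.43, Cd4 at 0.83 and Cd8a at -0.31. The PI3K, AKT and mTOR genes downstream of CD28 and ICOS had a median of -0.31 over 17 tested genes with 4 above 0, from Pik3r1 at 0.50 and Pik3r3 at 0.35, regulatory subunits of PI3K, down to Mlst8 at -0.61 and Pdpk1 at -0.63, the kinase that activates AKT. Of these, Pik3r3 was above background in 0 of the 3 ANT008+aPD-1 mice and Mlst8 and Pdpk1 in 1 each. Of the NF-kB subunit genes, Rela was at 0.10, Nfkb1 at -0.06 and Nfkb2 at -0.39.

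Genes known to respond to co-stimulation had a median of 1.44 over 11 tested genes in ANT008+aPD-1 against Scram+IgG, against 0.12 over all tested genes. Of the 11, 10 were above 0, where 56.7% of all 640 were, and 0 passed the FDR threshold. Only 1 of the 11 exceeded background in every lane. The highest were the cytokine genes Il10 at 3.82 and Il4 at 3.26, both exceeding background in just 1 ANT008+aPD-1 lane, and the lowest were Bcl2, a survival gene, at 0.13 and Myc at -1.16. The regulatory T cell markers tested were Ctla4 at 1.83, Il2ra, the CD25 gene, at 1.63 (FDR 0.309 by edgeR) and Foxp3 at 0.44, with Foxp3 above background in 1 of 3 ANT008+aPD-1 mice. Against Scram+IgG, the medians of the response genes were 0.42 (ANT008+IgG) and 0.30 (Scram+aPD-1), and those of the T cell receptor machinery were -0.04 and 0.14. The medians over all tested genes in these comparisons were 0.11 and 0.15.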

How the data were processed

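RNA of T cells from 12 tumors was counted on the nCounter Mouse Metabolic Pathways panel, 1 lane per mouse. The authors deposited raw counts per probe and lane as exported by the vendor's software, without background subtraction or scaling, and the vendor's panel definition, from which probe targets were read. Groups and mouse numbers came from the sample titles. The 3 genes, the gene lists and the tests were chosen with earlier results of these data known.

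Lanes were scaled by Dnajc14, Oaz1 and Ubb, the 3 of 20 housekeeping genes that exceeded background in each lane, through their geometric mean. A gene was tested if it exceeded background in 3 or more lanes, which held for 640, using edgeR 4.0.16 in R 4.3.3 (glmQLFit, glmQLFTest), 1 fit of all 4 groups and Benjamini-Hochberg adjustment. The paper names no test for single genes. Ratios to the CD3 chains used count + 1 and correlations used log2(scaled count + 1). Genes were named by rule, which took the 2 highest and 2 lowest tested members of each list, the 4 genes most like each receptor and the most abundant marker of each cell type. Cd14 per lane, the Ctla4 correlations, and the single genes of the myeloid and T cell lists were added after their values were seen. A few genes that the rule took are not reported here. The fit was tested on simulated counts, but the outcome is not reported here and no result rests on it. RefSeq GRCm38.p6 served for names and neighbors only, as no genome build is given for the panel. Alternatives included TMM, DESeq2 1.42.0 and limma 3.58.1. DESeq2 used its own lane scaling, and limma and voom used the housekeeping genes.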

Additional observations from a re-analysis of the deposited data

How the results depend on the processing

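Values are log2 fold changes unless counts of genes. Where background was subtracted, it was the mean of the negative control probes of the lane, without the 2 SD. Against Scram+IgG with ANT008+aPD-1, the genes called numbered 2 with TMM, 305 with CD3 chain scaling (all lower), 30 with DESeq2, 156 with voom and 2 with TMM over the genes above background in all 12 lanes, a setting chosen after seeing the data, under which Cd28 was 2.02 (FDR 0.0732). DESeq2 gave Cd28 1.88 in ANT008+aPD-1 against Scram+IgG, and it called 5 genes in ANT008+aPD-1 against each single agent. Voom called 44 genes with ANT008+IgG, 143 with Scram+aPD-1 and 5 in ANT008+aPD-1 against ANT008+IgG. With voom, Cd28, Icos and Cd27 passed in ANT008+aPD-1 (2.99, 2.38 and 2.19) and in Scram+aPD-1 (1.45, 1.59 and 1.43) against Scram+IgG, Cd28 also against ANT008+IgG (2.19), and Icos with ANT008+IgG turned to 1.34 and the interaction of Icos and Cd27 to -0.55 and -0.67. Positive control scaling turned Cd28, Icos and Cd27 to -2.90, -3.19 and -3.78 against Scram+IgG, -2.57, -2.50 and -2.77 against Scram+aPD-1, -2.06, -2.56 and -3.47 against ANT008+IgG and -1.72, -1.88 and -2.46 in the interaction. It turned them to -0.34, -0.68 and -1.01 with Scram+aPD-1, and Cd28 and Cd27 to -0.84 and -0.31 with ANT008+IgG. CD3 chain scaling turned Cd27 to -0.062 against Scram+IgG, -0.14 against Scram+aPD-1, -0.075 with ANT008+IgG and -0.061 in the interaction, and Cd28 to -0.40 against Scram+aPD-1 and -0.88 in the interaction. Values near 0 changed sign. Cd27 with ANT008+IgG was -0.033 (TMM), -0.086 (background subtracted) and -0.052 (DESeq2), and with Scram+aPD-1 -0.12, -0.086 and -0.10. Icos with Scram+aPD-1 was -0.017 (TMM) and -0.0037 (DESeq2), and with ANT008+IgG 0.40 (limma). Without both shallow lanes the interaction of Cd28 was -0.23. Per CD3 chain, Icos was -0.0075 with ANT008+IgG (background subtracted) and 0.21 with Scram+aPD-1 (Cd3e alone), and Cd27 was -0.65 with ANT008+aPD-1 (background subtracted) and 0.058 with ANT008+IgG (Cd3e alone). The causes were not tested.

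Leaving out each mouse in turn, the genes called ran from 0 to 84 (ANT008+aPD-1 against Scram+IgG), 0 to 26 (against ANT008+IgG), 0 to 35 (against Scram+aPD-1) and 0 to 1 (interaction), the highest without Scram+IgG mouse 1 in the first and without ANT008+aPD-1 mouse 2 in the others. For ANT008+aPD-1 against Scram+IgG, Cd28 ran from 1.80 to 2.78, Icos from 0.86 to 2.77 and Cd27 from 0.49 to 2.46. With ANT008+IgG, Icos ran from -0.51 to 1.43 and Cd27 from -0.85 to 1.54. With Scram+aPD-1, Icos ran from -0.56 to 1.57 and Cd27 from -0.43 to 1.54. The interaction ran from -0.25 to 1.06 for Cd28, -0.24 to 1.89 for Icos and -0.62 to 1.77 for Cd27. Per CD3 chain, Cd28 ran from -0.44 to 0.90 with ANT008+IgG and -0.12 to 1.07 with Scram+aPD-1. Icos ran from -0.16 to 0.17 and -0.20 to 0.22, and Cd27 from -0.22 to 0.15 and -0.044 to 0.32. Cd27 with ANT008+aPD-1 ran from -0.13 to 0.24.

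Mice with the same number deviated together by more than 0.1 in 7 of 18 pairs of groups, so by the rule that every pair exceed it the numbers did not pair the mice. Scram+IgG mouse 1 did deviate with mouse 1 of ANT008+IgG (0.78) and of Scram+aPD-1 (0.76), and these with each other (0.68). With the replicate number as a block, 0 genes were called in ANT008+aPD-1 against Scram+IgG, Cd28 was 2.12 (FDR 0.150), Icos 1.89 and Cd27 1.63, and Icos with ANT008+IgG turned to 0.31. Depth limits Icos and Cd27, since 2 of the 3 ANT008+aPD-1 lanes held 5 to 19 counts of either gene.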
